A study of Mus musculus with 12 samples.

Results

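Citrate cycle enzymes were described by 9 nuclear genes, Cs, Idh3a, Idh3b, Idh3g, Ogdh, Suclg1, Sucla2, Fh1 and Mdh2, taken by name from the 23863 genes of the deposited count table. All 9 were in the table and all 9 passed the filter on low counts that left 13236 genes for testing. The libraries came from osteoclast precursors, the marrow cells that fuse into bone-resorbing osteoclasts, sorted from mouse bone marrow as CD45R-, CD3-, CD11b-/lo and CD115+ cells. Cells of each sex were cultured with M-CSF alone or with both M-CSF and RANKL, which gave 4 groups of 3 libraries. M-CSF is the growth factor that keeps these precursors alive, RANKL is the cytokine that drives them to become osteoclasts, and it was used at 30 ng/ml. Every mouse, the controls included, was of the strain RUNX1 fl/+, a floxed allele of the transcription factor gene Runx1 in 1 copy; the titles also carry the tag WT, and no Cre driver and no age are named in the labels. The titles give 3 days of culture, whereas the growth protocol gives a longer time. Nothing in the labels says that replicates were separate animals or cultures, so a p-value covers only the variation among these libraries, possibly technical.

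The citrate cycle runs in the mitochondrial matrix and oxidizes the acetyl group of acetyl-CoA to carbon dioxide, passing the electrons as NADH and FADH2 to the respiratory chain. Citrate synthase (Cs) starts each turn, isocitrate dehydrogenase (Idh3a, Idh3b, Idh3g) and the 2-oxoglutarate dehydrogenase complex (Ogdh) carry out the oxidative decarboxylations, and succinyl-CoA ligase (Suclg1, Sucla2) makes a nucleoside triphosphate. Succinate dehydrogenase, fumarase (Fh1) and malate dehydrogenase (Mdh2) then regenerate oxaloacetate. Osteoclasts are known as cells rich in mitochondria.

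Promoter windows from RefSeq on GRCm38.p6, reaching from 250 bases before an annotated start to 50 after it, matched 8 of the 9 genes with 13 windows, of which 6 belonged to Ogdh. The windows of 4 genes are shown because they belong to the gene with the largest response to RANKL (Mdh2), the gene with the smallest (Sucla2), the partner subunit of the latter (Suclg1), and the one other gene that shares the TGACGTCA match of Mdh2 (Ogdh, its most upstream window). Their positions are chr5:135778399-135778698 for Mdh2, chr14:73552536-73552835 for Sucla2, chr6:73248255-73248554 for Suclg1 and chr11:6291347-6291646 for Ogdh, all on the plus strand. Capitals mark matches, on either strand, to any of 7 motifs.
Mdh2: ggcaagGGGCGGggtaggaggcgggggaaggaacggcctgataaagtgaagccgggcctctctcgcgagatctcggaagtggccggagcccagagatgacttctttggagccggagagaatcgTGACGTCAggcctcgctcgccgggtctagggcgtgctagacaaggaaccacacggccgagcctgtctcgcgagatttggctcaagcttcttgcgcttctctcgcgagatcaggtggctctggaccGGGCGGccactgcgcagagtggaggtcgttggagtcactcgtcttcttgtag
Sucla2: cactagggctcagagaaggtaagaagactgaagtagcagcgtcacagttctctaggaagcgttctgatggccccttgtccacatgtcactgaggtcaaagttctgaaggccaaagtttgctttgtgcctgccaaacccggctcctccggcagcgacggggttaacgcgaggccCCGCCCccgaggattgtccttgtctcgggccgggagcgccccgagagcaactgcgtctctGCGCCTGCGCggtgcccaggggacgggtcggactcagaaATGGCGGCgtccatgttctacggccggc
Suclg1: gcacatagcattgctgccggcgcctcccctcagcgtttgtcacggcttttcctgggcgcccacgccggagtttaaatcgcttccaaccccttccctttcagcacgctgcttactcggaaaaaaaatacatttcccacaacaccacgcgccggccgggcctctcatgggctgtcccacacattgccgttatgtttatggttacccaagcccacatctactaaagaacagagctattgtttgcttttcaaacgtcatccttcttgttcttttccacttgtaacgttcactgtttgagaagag
Ogdh: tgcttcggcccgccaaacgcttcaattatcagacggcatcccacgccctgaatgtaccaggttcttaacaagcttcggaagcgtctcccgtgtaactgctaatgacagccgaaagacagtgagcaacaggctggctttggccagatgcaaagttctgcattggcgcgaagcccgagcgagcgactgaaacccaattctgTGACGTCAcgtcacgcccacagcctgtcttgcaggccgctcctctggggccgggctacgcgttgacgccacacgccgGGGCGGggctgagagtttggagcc

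The 7 motifs searched were GGGCGG (GC box), CCGGAAG (an ETS family site), TGACGTCA (the cyclic AMP response element), CACGTG (E box), ATGGCGGC (a YY1 site), AAGGTCA (the core of sites for estrogen-related receptors) and the NRF1 site. Of all 32851 promoter windows of the same length, 35.7% held GGGCGG and 1.79% held TGACGTCA. GGGCGG was found in 8 of the 13 windows, from 5 of the 8 genes. TGACGTCA was found in 4 of the 13, from 2 genes: in Mdh2 at 127 bases before the start (position -127) and in Ogdh at -51 in the window shown. The 6 windows of Ogdh overlap in part, so counts of windows are not counts of independent sequences. CCGGAAG, held by 8.86% of all windows, was found in 2 of the 13, in Idh3b at -5 and in Idh3g at -104. The NRF1 site, held by 4.6% of all windows, was found in 1 of the 13, in Sucla2 at -17. ATGGCGGC, held by 2.24%, was found in 3 of the 13, in Sucla2 at 22 and in 2 windows of Ogdh. AAGGTCA, held by 4.72% of all windows, was found in 1 window and CACGTG, held by 7.15%, in 3 windows, all of Ogdh. The Suclg1 window held none of these letters. A match describes the letters of the window and is no evidence that a factor binds there.

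The libraries held 10646697 to 15983769 counts. Levels are given as CPM, the counts scaled to a common library size after adjustment by the trimmed mean of M-values (TMM). The 9 osteoclast markers checked summed to 73.3 to 79.7 CPM in the 6 M-CSF libraries, with the calcitonin receptor gene Calcr at 0 in all of them, and to 29178 to 38842 CPM with RANKL. The 8 macrophage and monocyte markers summed to 4920 to 5762 CPM in M-CSF and to 3287 to 3573 CPM with RANKL. They did not move alike. In the edgeR test described below, averaged over the sexes, 4 were called lower and 4 were not called, where 31.3% of all genes were called lower. Mrc1 went from a mean of 970 CPM to 16.1 CPM, whereas Csf1r was at 1492 and 1436 CPM and Cd68 at 1226 and 1417 CPM. The 8 neutrophil and granule markers summed to 84.3 to 239.9 CPM in female and 44 to 62.7 CPM in male M-CSF libraries, and to 83.8 to 249.7 and 46.3 to 70.9 CPM with RANKL. The 4 dendritic cell markers summed to 6.79 to 12.4 CPM. T cell markers summed to 0 to 0.925 CPM in M-CSF and 1.92 to 4.39 CPM with RANKL, B cell markers to 0.639 to 4.43 CPM, and erythroid and stromal markers to at most 0.444 and 0.845 CPM in any library. Reads of genes encoded by the mitochondrial genome made up 1.43% to 2.35% of counts in the M-CSF libraries and 2.96% to 3.86% with RANKL. The part of these differences in the results on the cycle genes was not tested, and in bulk RNA fewer cells of a type and less RNA per cell cannot be told apart.

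Every one of the 9 citrate cycle genes rose with RANKL in both sexes. In the comparison of M-CSF+RANKL with M-CSF averaged over the sexes, the rise ranged from 1.37-fold for Sucla2 to 3.28-fold for Mdh2. All 9 were called higher (adjusted p below 0.05, edgeR quasi-likelihood test, Benjamini-Hochberg over all genes tested), where 33.4% of all 13236 genes were called higher and 64.7% were called in either direction. All 9 were also called higher in females alone, where 26.8% of genes were (51.9% in either direction), and in males alone, where 28.4% were (55% in either direction). The median log2 fold change of the 9 was 1.21, against 0.02 over all genes tested. In all 9 genes the lowest of the 6 RANKL libraries lay above the highest of the 6 M-CSF libraries, as it did for 24.3% of all genes tested. The 9 genes together made up 0.169% to 0.185% of a library's counts in M-CSF and 0.394% to 0.464% with RANKL.

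**Figure D1:**
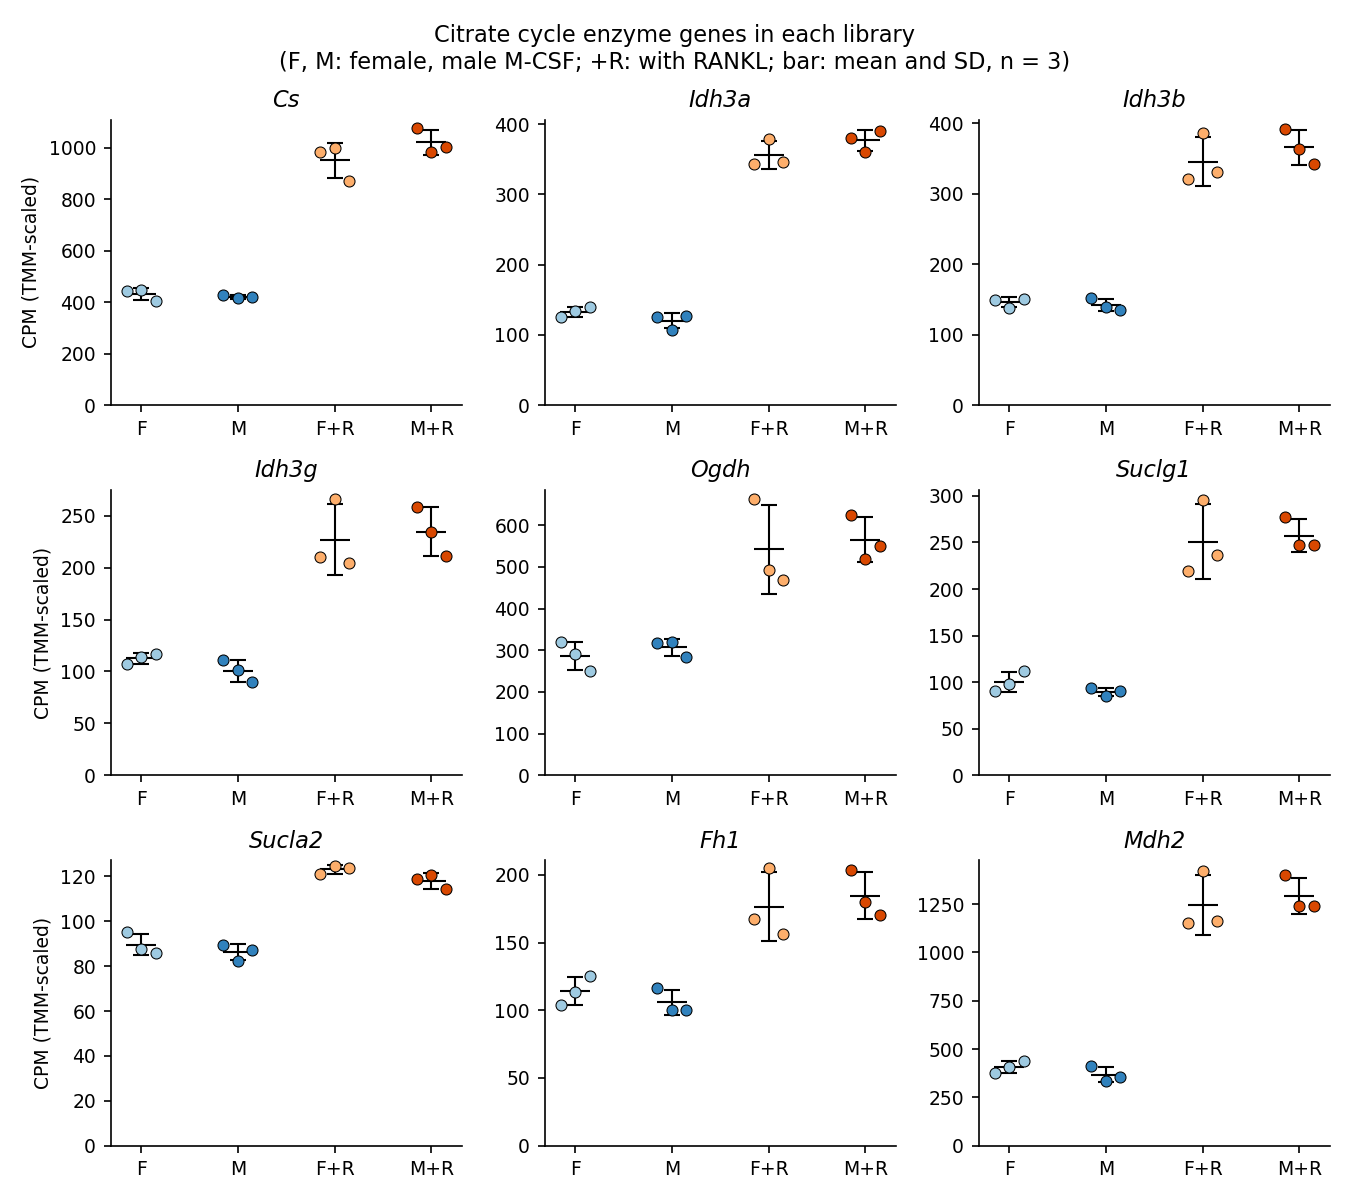
Level of each of the 9 citrate cycle genes in CPM (vertical axes, from 0) in the 12 libraries, by group; points are libraries and bars the mean and SD of 3. In every panel all 6 RANKL libraries lie above all 6 M-CSF libraries, with the narrowest gap in Sucla2 (114 against 95.1 CPM) and the widest ratio in Mdh2 (1151 against 437 CPM).

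Cs encodes citrate synthase, which joins acetyl-CoA to oxaloacetate. Its level was 442, 447 and 403 CPM in female and 429, 415 and 418 CPM in male M-CSF libraries. With RANKL it was 981, 996 and 872 CPM in females and 1075, 985 and 1002 CPM in males. The 4 groups thus fell into a low and a high set by treatment, and the sexes overlapped within each. The log2 fold change was 1.21 ± 0.06 (SE), or 2.31-fold with a 95% interval of 2.10 to 2.55 (adjusted p = 1.31e-09, edgeR).

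The NAD-dependent isocitrate dehydrogenase is built from a catalytic alpha subunit (Idh3a) and the beta and gamma subunits (Idh3b, Idh3g). Idh3a was at 126, 133 and 139 CPM in female and 126, 107 and 127 CPM in male M-CSF libraries. It was at 343, 378 and 346 CPM in female and 380.5, 361 and 390.1 CPM in male RANKL libraries, a rise of 2.90-fold (95% interval 2.62 to 3.21; log2 1.54 ± 0.07; adjusted p = 2.03e-10, edgeR). Every RANKL library was at least 2.46 times as high as the highest M-CSF library.
Idh3b rose from 136 to 152 CPM over the 6 M-CSF libraries to 321 to 392 CPM over the 6 RANKL libraries, a log2 fold change of 1.30 ± 0.07 (adjusted p = 1.65e-09, edgeR). Idh3g, the X-linked gene of the 9, was at 107, 114 and 117 CPM in female and 111, 101 and 89.5 CPM in male M-CSF libraries. With RANKL it was at 210.3, 266 and 205 CPM in females and 259, 234 and 211 CPM in males, a log2 fold change of 1.12 ± 0.09 (adjusted p = 6.55e-08, edgeR). Female and male libraries overlapped in both treatments.

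The 3 subunit genes did not rise by equal amounts. The ratio of Idh3a to Idh3g counts within a library was higher by 0.43 on the log2 scale with RANKL (1.34-fold, 95% interval 1.19 to 1.54), and the 6 RANKL libraries did not overlap the 6 M-CSF libraries. Idh3a to Idh3b was higher by 0.24 (1.18-fold, 1.06 to 1.31), again without overlap, and Idh3b to Idh3g by 0.19 (1.14-fold, 1.06 to 1.22), with overlap. Each gave p = 0.005 in a two-sided exact permutation test of treatment labels within the sexes, the smallest p that its 400 arrangements allow (adjusted p = 0.008 over the 8 ratios tested). Per kilobase of merged exons, Idh3a stood at 0.59 of the Idh3b level in M-CSF and at 0.70 with RANKL. A ratio within a library does not depend on how libraries were scaled.

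Idh2 encodes the mitochondrial enzyme that makes the same conversion with NADP. It rose by 0.68 ± 0.07 on the log2 scale, and the ratio of Idh3a to Idh2 was higher by 0.86 (1.82-fold, 95% interval 1.62 to 2.04; exact permutation p = 0.005, adjusted p = 0.008). The range of this per-kilobase ratio was 0.352 to 0.447 in M-CSF and 0.661 to 0.78 with RANKL. On this scale Idh3a stayed below Idh2 in every library, an order that rests on merged exon lengths of 5072 and 2588 bases. In counts not divided by length, the mean log2 ratio of Idh3a to Idh2 was -0.36 in M-CSF and 0.51 with RANKL.

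Ogdh encodes the component of the 2-oxoglutarate dehydrogenase complex that decarboxylates 2-oxoglutarate, and Dlst and Dld encode the other components. Ogdh was at 319, 291 and 251 CPM in female and 317, 320.0 and 284 CPM in male M-CSF libraries. With RANKL it was at 664, 492 and 469.6 CPM in females and 626, 519 and 551 CPM in males. It rose by 0.90 ± 0.10 on the log2 scale (1.86-fold, 95% interval 1.61 to 2.16; adjusted p = 2.10e-06, edgeR), with the widest spread within groups of the 9 genes (SD of log2 CPM 0.18). Female RANKL replicate 1 was the highest of all 12. Dlst rose by 1.31 ± 0.06 and Dld by 1.40 ± 0.07. The ratio of Ogdh to Dlst counts fell by 0.42 on the log2 scale (0.747-fold, 95% interval 0.64 to 0.88; exact permutation p = 0.01, adjusted p = 0.0133), although the ranges of the 2 treatments overlapped.

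Succinyl-CoA ligase pairs the alpha subunit Suclg1 with a beta subunit that sets the nucleotide, Sucla2 for ATP or Suclg2 for GTP. Suclg1 was at 90.6, 97.8 and 112 CPM in female and 93.8, 85.5 and 90.5 CPM in male M-CSF libraries. With RANKL it was at 219.6, 296 and 237 CPM in females and 278, 247 and 247 CPM in males, a rise of 2.68-fold (95% interval 2.35 to 3.05; log2 1.42 ± 0.09; adjusted p = 5.23e-09, edgeR). The lowest RANKL library was 1.96 times the highest M-CSF library.
Sucla2 moved least of the 9 genes. Its level was 95.1, 87.8 and 86 CPM in female and 89.2, 82.5 and 87.2 CPM in male M-CSF libraries, and 121, 125 and 124 CPM in female and 119, 121 and 114 CPM in male RANKL libraries. The rise of 1.37-fold (95% interval 1.26 to 1.49; log2 0.46 ± 0.06; adjusted p = 8.73e-06, edgeR) was small but the treatments did not overlap. Its spread within groups was the narrowest of the 9 (SD of log2 CPM 0.05).

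Suclg2 rose by 0.40 ± 0.07 on the log2 scale, close to Sucla2. The ratio of the beta subunits Sucla2 to Suclg2 differed by 0.05 between treatments (95% interval -0.05 to 0.18, exact permutation p = 0.425, adjusted p = 0.46). Per kilobase of merged exons, Sucla2 stood at 2.06 times Suclg2 in M-CSF and 2.14 times with RANKL. The alpha subunit was then set against the sum of both beta subunits, a ratio chosen after the values were seen and given without a test. Suclg1 per kilobase was 0.562, 0.658 and 0.72 of that sum in female and 0.608, 0.61 and 0.608 in male M-CSF libraries. With RANKL it was 1.07, 1.39 and 1.15 in females and 1.36, 1.18 and 1.29 in males. The ratio was thus below 1 in all 6 M-CSF libraries and above 1 in all 6 RANKL libraries on this per-length scale. Which side of 1 it lies on depends on the lengths used. These were merged exons of 4617 bases for Suclg1, 3988 for Sucla2 and 4623 for Suclg2. The values therefore show a rise of the ratio, and not which side was the more abundant.

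Succinate dehydrogenase links the cycle to the respiratory chain, and its 4 subunit genes all rose, Sdhb by 1.505 ± 0.09, Sdha by 1.34 ± 0.06, Sdhd by 1.24 ± 0.08 and Sdhc by 0.91 ± 0.08 on the log2 scale. Fh1 encodes fumarase, which hydrates fumarate to malate. It was at 104, 114 and 125 CPM in female and 117, 100.3 and 100.5 CPM in male M-CSF libraries, and at 167, 205 and 157 CPM in female and 204, 180.2 and 170.5 CPM in male RANKL libraries. Its rise of 1.64-fold (95% interval 1.44 to 1.87; log2 0.72 ± 0.09; adjusted p = 5.57e-06, edgeR) was the second smallest of the 9.

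Mdh2 encodes the mitochondrial malate dehydrogenase, which closes the cycle and also serves the malate-aspartate shuttle. It was at 376, 409 and 437 CPM in female and 413, 335 and 356 CPM in male M-CSF libraries. With RANKL it was at 1151, 1423 and 1161 CPM in females and 1401, 1238 and 1238 CPM in males. The lowest RANKL library was 2.63 times the highest M-CSF library. The rise was 3.28-fold (95% interval 2.89 to 3.72; log2 1.71 ± 0.08; adjusted p = 6.70e-10, edgeR). The cytosolic partner of the shuttle, Mdh1, rose by 1.67 ± 0.10 on the log2 scale, and the ratio of Mdh2 to Mdh1 differed by 0.04 between treatments (95% interval -0.08 to 0.18, exact permutation p = 0.46, adjusted p = 0.46).

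**Figure D2:**
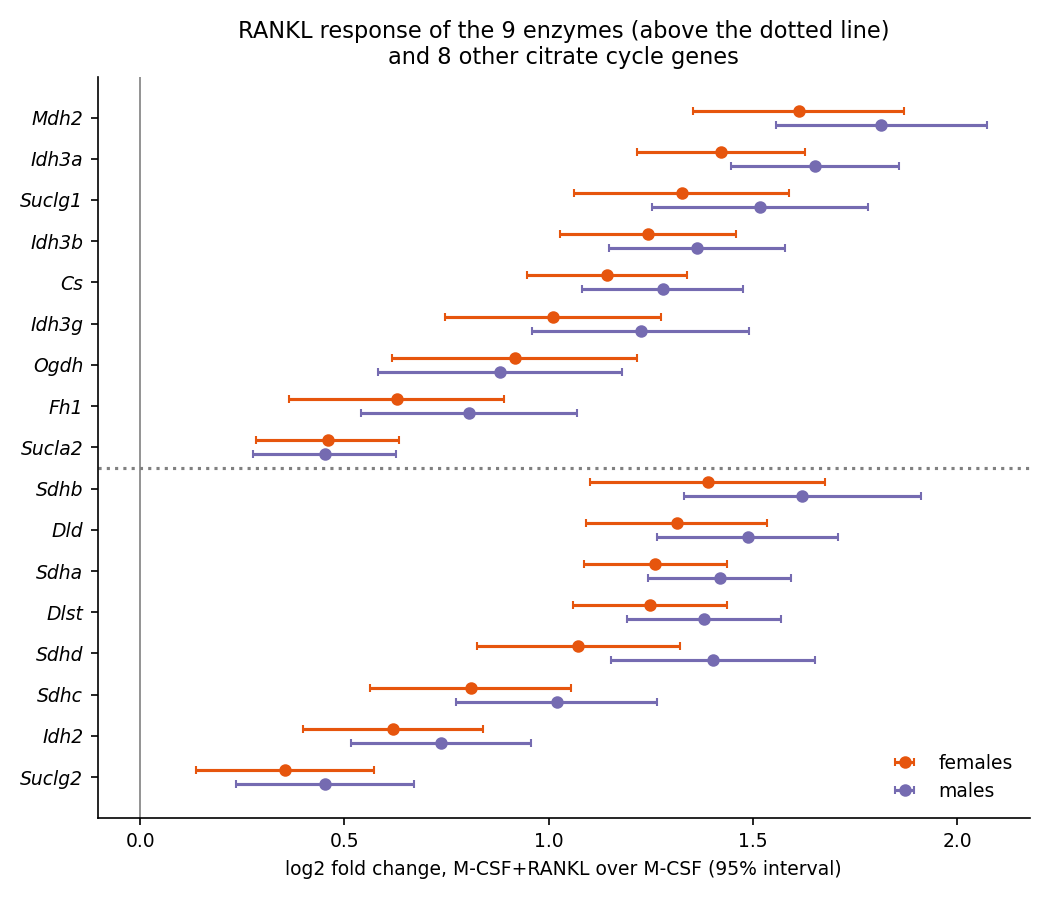
Log2 fold change of M-CSF+RANKL over M-CSF with its 95% interval, in females and in males (3 libraries a group), for the 9 citrate cycle enzymes above the dotted line and 8 other cycle genes below it. Every interval lies above 0, and within each gene the intervals of the sexes overlap; the averaged response runs from 0.40 for Suclg2 to 1.71 for Mdh2.

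A further 8 genes of the cycle (Dlst, Dld, Suclg2, Sdha, Sdhb, Sdhc, Sdhd and Idh2) were all called higher as well, in each sex and in the average, with a median log2 fold change of 1.28. Over all genes tested, 26.8% were called higher in females, 28.4% in males and 33.4% in the average. In all 8 the RANKL libraries lay above the M-CSF libraries without overlap, as they did for 24.3% of all genes tested. The size of the rise differed along the cycle. The intervals of Sucla2 (1.26 to 1.49-fold) and Fh1 (1.44 to 1.87-fold) lay wholly below those of Idh3a (2.62 to 3.21-fold) and Mdh2 (2.89 to 3.72-fold).

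Levels of different genes were set side by side per kilobase of merged exons, which adjusts for annotated length only. Mdh2 was the highest of the 9 in M-CSF at 108.8 ± 10.9 CPM per kilobase (SD, n = 6), followed by Cs at 73.6 ± 2.92 and Ogdh at 54.4 ± 4.98. Idh3b (42.1 ± 2.12), Idh3g (39.4 ± 3.70) and Fh1 (32.4 ± 2.98) followed, and the ranges of Idh3b and Idh3g, and of Idh3g and Fh1, overlapped. Idh3a (24.9 ± 2.11), Sucla2 (22.1 ± 1.05) and Suclg1 (20.6 ± 1.99) were lowest, below the range of Fh1, with overlapping ranges between neighbours. With RANKL, Mdh2 (356 ± 32.9) and Cs (170.5 ± 11.3) stayed first and second. Idh3b (103.9 ± 8.59), Ogdh (101.5 ± 14.1), Idh3g (85.4 ± 9.83) and Idh3a (72.2 ± 3.84) came next, with overlapping ranges between neighbours in this order, and lay above the genes that followed. Suclg1 (55 ± 6.05) and Fh1 (53.3 ± 5.89) overlapped each other, and Sucla2 (30.2 ± 0.95) was lowest and apart from the rest. Lengths were those of all annotated exons together, so a gene with rarely used exons reads low on this scale. The longest coding transcript had 2926 bases for Cs, against 5779 of merged exons, and 1456 for Mdh2, against 3562. The order of the genes could thus differ with other lengths.

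**Figure D3:**
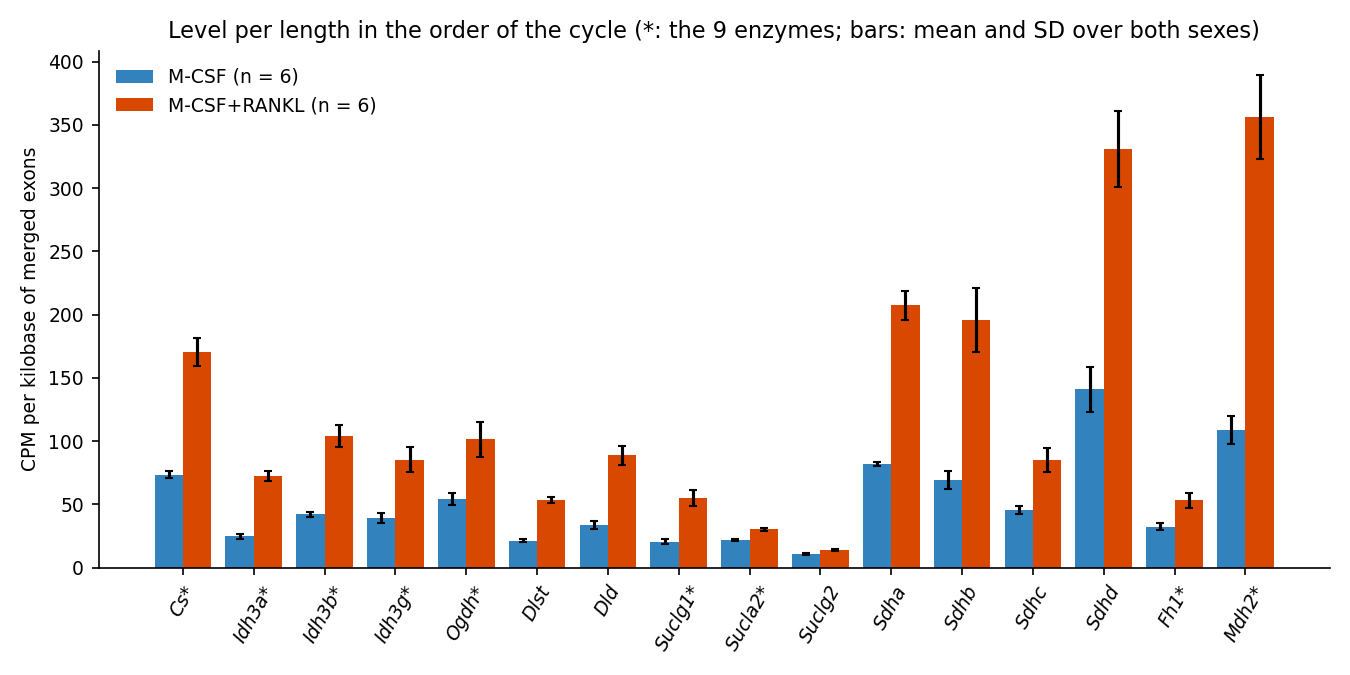
Level per length (CPM per kilobase of merged exons, vertical axis from 0) of the 9 enzymes and 7 further citrate cycle genes, in the order of the reactions, in M-CSF (n = 6) and M-CSF+RANKL (n = 6); bars are means with SD over both sexes. Mdh2 reaches 356 CPM per kilobase with RANKL, whereas Sucla2 moves from 22.1 to 30.2.

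The study set female against male cells, and the sexes were compared within each treatment and in the size of the response. None of the 9 genes was called between females and males in M-CSF, where 0.0453% of all genes were called, or with RANKL, where 0.0529% were. Log2 differences of females minus males ran from -0.10 for Ogdh to 0.17 for Idh3g in M-CSF, and from -0.10 for Cs to 0.06 for Sucla2 with RANKL. Over the 9 genes the 95% intervals reached from -0.39 to 0.43 in M-CSF. The response of females minus that of males was negative in 7 of the 9 genes, while it was positive in 51.3% of all genes tested. The 9 genes were measured in the same libraries, so their signs are not separate observations. This difference ran from -0.23 for Idh3a to 0.04 for Ogdh, and none of the 9 was called (adjusted p = 0.999925 for each, edgeR). In this comparison 0% of all genes were called by edgeR, and DESeq2 called 0. Of 13236 genes tested, 260 had an unadjusted p below 0.05 (edgeR), a smaller share than the 0.05 expected if no gene differed. The lowest bound of the 95% intervals of these differences was -0.59 (Idh3g) and the highest 0.46 (Ogdh), and the interval was narrowest for Sucla2 (-0.24 to 0.25). With 3 libraries a group, a sex difference in the response within a gene's own interval is thus not excluded.

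Lists of genes around the cycle were counted in the average response, in which 33.4% of all genes tested were called higher and 31.3% lower. Among 12 tested genes of pyruvate entry, 10 were called higher and 2 lower. Mitochondrial pyruvate carrier gene Mpc2 rose by 1.59 ± 0.11, the pyruvate dehydrogenase E1 genes Pdhb by 1.92 ± 0.07 and Pdha1 by 1.33 ± 0.06, and Pdk2, a kinase that inhibits pyruvate dehydrogenase, by 2.697 ± 0.12 on the log2 scale. Pdk2 remained a low transcript, at 2.73 ± 0.26 CPM in M-CSF and 17.8 ± 1.94 CPM with RANKL (SD, n = 6). The 2 genes called lower, named after their values were seen, were Pdp1 (-1.10 ± 0.11) and Pdp2 (-0.52 ± 0.19), phosphatases that reverse that inhibition. The list's calls lower numbered 1 when any of 5 libraries was left out, namely female M-CSF replicate 1, male M-CSF replicate 2, female M-CSF+RANKL replicates 2 and 3 and male M-CSF+RANKL replicate 3.

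Of 13 tested genes for carriers, anaplerosis and glutamine, 5 were called higher and 5 lower, shares near those of all genes tested (33.4% and 31.3%), and the median log2 fold change was -0.17. The glutamine transporter Slc1a5 rose by 2.07 ± 0.07, the oxoglutarate carrier Slc25a11 by 0.89 ± 0.09 and the cytosolic aspartate aminotransferase Got1 by 0.78 ± 0.07. The citrate carrier Slc25a1 fell by 0.89 on the log2 scale, with an SE of 0.13. Without male M-CSF+RANKL replicate 3 the list had 3 genes called lower.

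Of 9 tested genes for cytosolic counterparts and side branches, 4 were called higher and 4 lower, an even split like that of all genes tested (33.4% and 31.3%). Mdh1 rose, as given above, and Ogdhl, a relative of Ogdh, rose by 2.40 ± 0.39 from 0.215 ± 0.162 to 1.17 ± 0.354 CPM. Malic enzyme Me1 fell by 1.90 on the log2 scale, with an SE of 0.15. Acod1, which makes itaconate from cis-aconitate, fell by 1.51 with an SE of 0.35 in the average and was not called in females alone. Its RANKL libraries ranged from 2.63 to 27.2 CPM against 14.2 to 29.5 CPM in M-CSF. Acly, which splits citrate in the cytosol, had a log2 fold change of -0.25 ± 0.09 (adjusted p = 0.0329, edgeR). The ratio of Cs to Acly was higher by 1.46 with RANKL (2.74-fold, 95% interval 2.25 to 3.30; exact permutation p = 0.005, adjusted p = 0.008), and the treatments did not overlap.

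Of 8 genes taken as references for mitochondrial content, all 8 were called higher, where 33.4% of all genes tested were. Their median log2 fold change was 0.70, against 1.21 for the 9 cycle enzymes and 0.02 over all genes tested. Lonp1, a matrix protease, rose by 1.01 ± 0.07, the chaperonin gene Hspd1 by 0.97 ± 0.07, the outer membrane channel gene Vdac1 by 0.83 ± 0.06 and the import gene Timm23 by 0.71 ± 0.08. Sucla2, at 0.46, lay below this median, and Fh1, at 0.72, lay at it. Of 4 assembly factors of succinate dehydrogenase, 3 were called higher (33.4% of all genes tested were), Sdhaf4 and Sdhaf1 by 0.87 each and Sdhaf2 by 0.63. Whether mitochondrial content moved with the cycle genes was not tested.

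**Figure D4:**
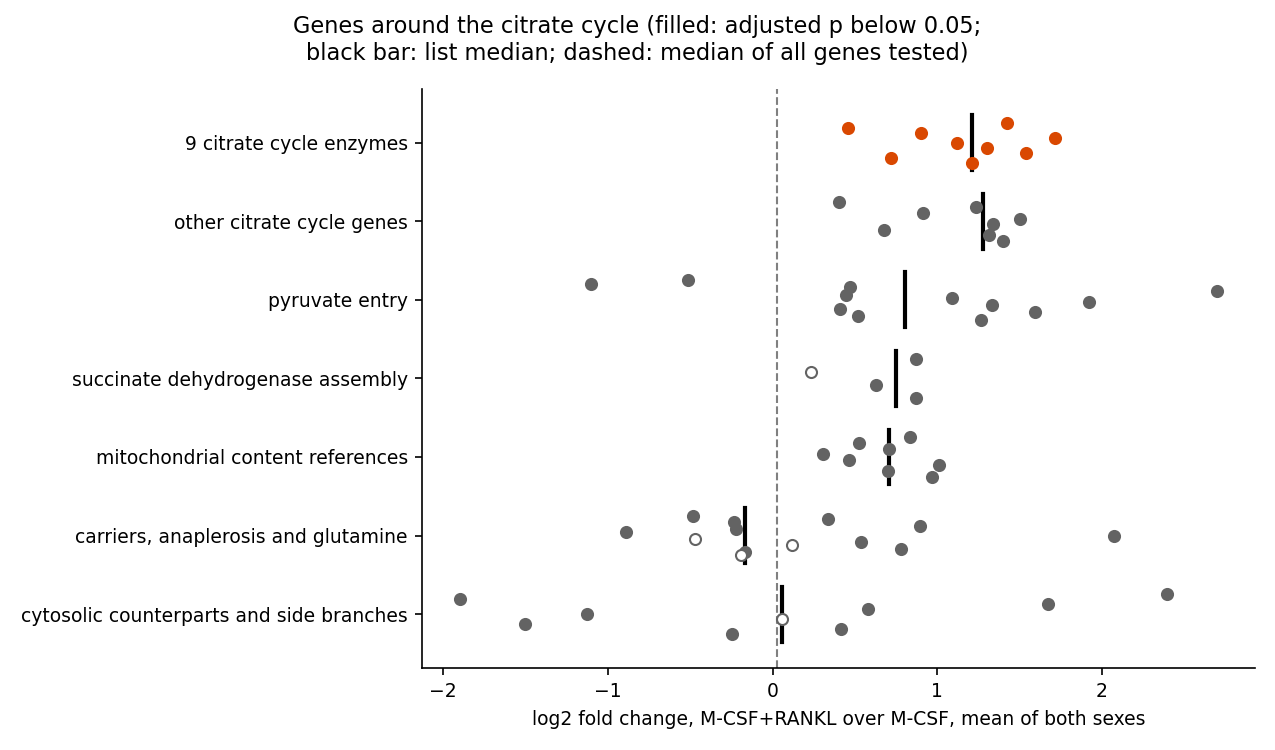
Log2 fold change of M-CSF+RANKL over M-CSF, averaged over the sexes, for each tested gene of 7 lists; filled points passed the test, black bars are list medians and the dashed line is the median of all genes tested (0.02). The 9 cycle enzymes and the 8 other cycle genes lie wholly to the right of 0. So do the mitochondrial content references and the succinate dehydrogenase assembly factors, from 0.30 and 0.23. The pyruvate entry, carrier and cytosolic lists spread to both sides, with medians of 0.80, -0.17 and 0.06.

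Some other genes followed the mean of the 9 very closely over the 12 libraries. Those with the highest Pearson r, given as a description, were Atp6v1e1, a subunit of the proton pump that acidifies the resorption space (r = 0.998), Bbs9, Tango2, the complex I subunit Ndufv1, Tbrg1, the complex III subunit Uqcrc2, 1110008P14Rik and the ATP synthase subunit Atp5a1 (r = 0.997). The libraries fall into sets by treatment, so a gene with a large rise gives a high r by itself. Of 9819 genes with a mean of at least 5 CPM, 1127 had an r over 0.95, and so had 7 of the 8 other cycle genes.

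Within groups the 9 genes did not vary as 1 block. Deviations of log2 CPM from the group mean were closely related over the 12 libraries for Fh1 and Mdh2 (r = 0.95), Idh3g and Fh1 (r = 0.92) and Suclg1 and Mdh2 (r = 0.90), as a description. Ogdh was unlike them, with r = -0.48 against Suclg1 and r = -0.23 against Mdh2, and its highest r was with Cs (0.67). Sucla2 was also little related to these genes, with r = -0.03 against Suclg1, 0.04 against Fh1 and 0.14 against Mdh2. In female M-CSF+RANKL replicate 1, Ogdh lay 0.31 above its group mean and Suclg1 lay at -0.18. In replicate 2 of the same group, Suclg1 lay at 0.25 and Ogdh at -0.12. In male replicate 1 all 9 genes lay above the group mean, in both treatments. Deviations also differed with gene length. Over 8919 genes, the median deviation of genes with at least 7153 bases of merged exons minus that of genes with at most 3005 bases was 0.26 in female M-CSF+RANKL replicate 1 and -0.37 in replicate 2. Ogdh has 5456 and Mdh2 3562 bases of merged exons, so neither gene lies in either length class. The deviation of Ogdh minus that of Mdh2 was 0.42 and -0.32 in the same libraries. In male M-CSF replicates 1 and 3 the length difference was -0.24 and 0.23, and Ogdh minus Mdh2 was -0.12 and -0.07. For male M-CSF+RANKL replicates 1 and 3 the length difference was -0.26 and 0.26, and Ogdh minus Mdh2 was 0.03 in both. The directions thus matched in some libraries and not in others. The part of this length difference in the values of single genes was not tested.

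**Figure D5:**
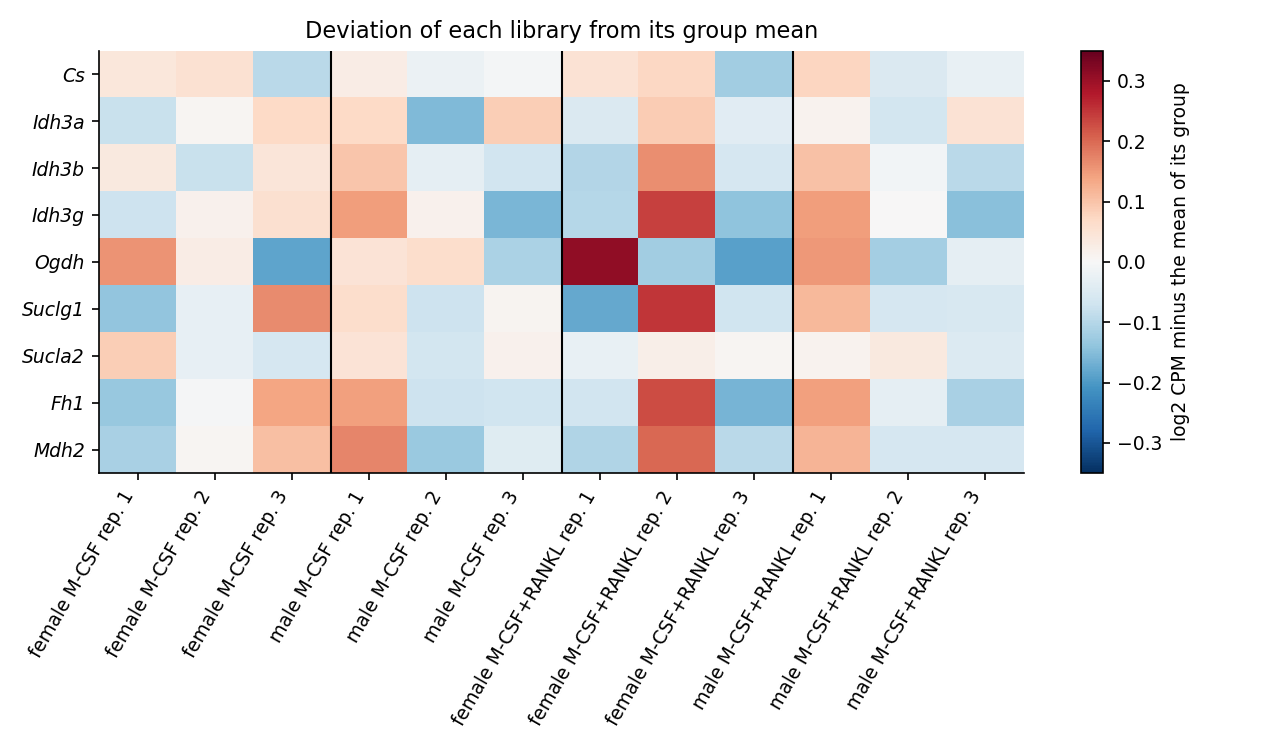
Deviation of each library from its group mean (colour, log2 CPM) for the 9 citrate cycle genes (rows) in the 12 libraries (columns), with lines between groups. The strongest cell is Ogdh in female M-CSF+RANKL replicate 1, at 0.31, while Suclg1 in that library lies at -0.18.

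Where counts of an overlapping gene or close copy were available, counting could have mixed few reads of these genes with others. Idh3b shares 5 exon bases with Nop56 on the other strand, and the strand setting of the counting is not given in the sources used here. Fh1 and Kmo overlap without shared exon bases. Close copies of Cs were Csl with 24 and Gm48254 with 13 counts over all libraries, against 119949 for Cs. For Mdh2 the pseudogenes Gm11241 (85.4% identity) and Gm12384 (87% identity) were found. Neither is among the genes of the deposited counts, so reads mixed between them and Mdh2 could not be assessed. In the authors' deposited table all 9 genes passed a false discovery rate of 0.05 in each sex's RANKL comparison, with log2 fold changes of 0.47 to 1.63 in females and 0.46 to 1.83 in males. The same authors' deposited table had 0 of the 9 past it between the sexes in either treatment. That table comes from the same libraries, and its share of all genes past the threshold was not counted here. The test used here called 51.9% of all genes in females and 55% in males, in either direction.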

How the data were processed

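RNA was measured by sequencing in 12 libraries. Per the labels' protocols, an RNeasy Plus kit gave the RNA and libraries were stranded and poly(A) selected. The submitters' processing notes list mm10 as the build and, as tools, edgeR, fastp and STAR 2.7.3a. How reads were counted, with which strand setting and annotation, is not given in the sources used here. The authors deposited whole-number counts per gene, which were used here, and a table of their own log2 fold changes and p-values (false discovery rates), quoted only where named. All count columns matched a sample by title.

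Counts were analysed in R 4.3.3 with edgeR 4.0.16. Genes were kept by filterByExpr (minimum count 10), TMM set the library sizes, and the quasi-likelihood model estimated the 4 group means jointly from all 12 libraries. Standard errors were derived from the F statistic. Ratios were tested by exact permutation within the sexes, with intervals from inverting that test. Alternatives used limma 3.58.1 and DESeq2 1.42.0, other scalings and filters, a replicate block and the leaving out of each library. Scripts were tested on simulated data.

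Same-numbered libraries of a sex deviated together from their group means (r = 0.302 to 0.706 in 6 pairs over 8920 genes, against -0.618 to -0.01 in the 12 other pairings). Deviations from a mean of 3 libraries sum to 0 for each gene, so a positive r in the 6 pairs pushes the others below 0. The negative values are thus not separate evidence. Between the sexes, same-numbered libraries gave r = 0.42 and 0.52 for replicate 3 and -0.50 to 0.00018 for replicates 1 and 2. The positive r of the 6 pairs is a hint from the data, and from no label, that the numbers pair libraries within a sex. The main edgeR test and the permutation test of the ratios did not use this pairing, so their errors, intervals and p-values ignore it. It entered only as the replicate block among the alternatives. Libraries of a group differed by more than sampling noise. Gene IDs were matched to GENCODE vM21 on GRCm38, the assembly of mm10 (23855 of 23863), and copies were sought with BLAST 2.17.0 at 85% identity over 200 bases. Figures were drawn with matplotlib 3.10.9. The genes and lists were chosen with earlier results of these data known. Some results on items other than the 9 enzymes are not reported here. From each neighbouring list the 4 called genes with the largest absolute log2 fold change were named, and a gene outside that rule either belongs to a ratio or is marked in the text as picked with its values known.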

Additional observations from a re-analysis of the deposited data

How the results depend on the processing

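The number of the 9 citrate cycle genes called, and that of the 8 other cycle genes, was the same in all 120 alternatives run over the 6 comparisons. These were other library scalings, filters and tests, the replicate block and each library left out. With the replicate block, for the pairing within a sex, 9 of 9 were called higher in each response, and the block changed no other call of the 9. Their averaged log2 fold changes moved little, between 1.66 and 1.76 for Mdh2 and between 0.44 and 0.48 for Sucla2. By unadjusted p, the 8 ratios kept their side of the threshold and their direction in all 112 alternatives. Values near 0 changed sign. The difference of responses for Sucla2 was -0.0034 with upper-quartile factors and ran from -0.032 to 0.053 over the libraries left out, and that for Ogdh from -0.13 to 0.14. Female against male with RANKL, these ranges were -0.19 to 0.027 for Idh3g, -0.23 to 0.036 for Ogdh, -0.18 to 0.051 for Suclg1, -0.20 to 0.018 for Fh1 and -0.17 to 0.0058 for Mdh2. Over all genes, female against male gave 6 calls in M-CSF, 12 without a low count filter and 16 with DESeq2. With RANKL it gave 7 calls, 11 without a filter, 20 with DESeq2 and 6 to 12 over the libraries left out, the highest without female M-CSF+RANKL replicate 2. The cause was not tested. In neighbouring lists, calls lower ran from 1 to 2 for pyruvate entry and from 3 to 5 for carriers over the libraries left out. In females alone Acod1 was not called in the main test but was called in 3 of 20 alternatives. Its log2 fold change there ran from -1.98 to -0.62. Sdhaf1 lost its call in 9 of 20 alternatives in females and in 1 of 20 in males. In the average both genes kept their calls in all 20. With 3 libraries a group, small sex differences lay below what could be detected.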
